A study of Mus musculus with 21 samples.

Results

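The 9 genes described here encode the mouse synaptonemal complex and the chromosome axis it is built on. They are Sycp1, Syce1, Syce2, Syce3, Tex12, Sycp2, Sycp3, Hormad1 and Hormad2, chosen by symbol from a table of 55573 entries. Each symbol stood on 1 entry, and all 9 were among the 18977 genes that reached a mean of 1 TPM (a relative transcript level scaled for transcript length and for the library's total) over the 21 libraries. The libraries were made from whole testes of C57BL6 males and are biological replicates, here called animals. There were 5 Mageb4 knockout and 4 wild-type libraries taken 72 h after heat shock, and 6 Mageb4 knockout and 6 wild-type libraries taken without heat. The 4 groups share the strain and differ in genotype and heat. How hot and how long the heat shock was, how old the mice were and which Mageb4 allele was used were not stated in the labels. Below, heated knockout, heated wild type, unheated knockout and unheated wild type name these groups.

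During meiotic prophase each chromosome folds into loops along a protein axis, and the synaptonemal complex then joins the axes of paired homologues like a zip. SYCP2 and SYCP3 form the axis and later the lateral element, HORMAD1 and HORMAD2 mark axes that are not yet joined, and SYCP1 spans the gap as the transverse filament. SYCE1, SYCE2, SYCE3 and TEX12 make the central element that locks the filaments together. In the testis the complex is a feature of spermatocytes, where it assembles at zygotene and is complete at pachytene, and male mice that lack one of its central parts are sterile.

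Sycp1 lies on the minus strand of chr3:102818499-102936100 (mm10, GENCODE M21 annotation) and codes for 993 residues. Of the central element genes, Syce1 lies at chr7:140777229-140787852 on the minus strand with 329 residues, and Syce2 at chr8:84872111-84888221 on the plus strand with 177. Syce3 lies at chr15:89390174-89410503 on the minus strand with 88 residues, and Tex12 at chr9:50556819-50561325 on the minus strand with 123. Of the axis genes, Sycp2 spans chr2:178345293-178407685 on the minus strand with 1500 residues, and Sycp3 spans chr10:88459569-88473236 on the plus strand with 254. Hormad1 lies at chr3:95559677-95587671 on the plus strand with 392 residues, and Hormad2 at chr11:4345814-4441105 on the minus strand with 306. All are autosomal, so the X-linked Mageb4 locus is on another chromosome.

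Many germline genes carry a short E2F core in the promoter, which the repressor E2F6 binds to keep them silent outside the germline. The E2F core GCGGGA was searched on both strands of the RefSeq promoter windows (GRCm38.p6, 250 bases before to 50 after each start). It was found in the windows of 5 of the 9 genes, namely Sycp1, Syce2, Tex12, Sycp3 and Hormad1, against 19.975% of all 32851 windows. The MYB core AACNG was in all 9 and in 80.3% of windows, the CRE TGACGTCA in 0 of 9 and 1.79%, and CNCCTCAG, a STRA8 and MEIOSIN motif, in 3 of 9 (Sycp1, Tex12 and Hormad2) and 7.94%. The 6 stretches of 60 bases below are from 6 of the genes. Sycp3, Hormad1 and Syce2 were called higher after heat, Syce1 and Syce3 lower, and Tex12 was not called. Sycp1, which held a match, and Sycp2 and Hormad2, which did not, are not shown. Where there was a match, the stretch was placed to hold it. From the RefSeq start, the stretches lie at -174 to -115 (Sycp3), -122 to -63 (Hormad1), -142 to -83 (Syce2) and -172 to -113 (Tex12). Those of Syce1 and Syce3 lie at -60 to -1. The 6 stretches thus do not cover matching positions. Each runs 5′ to 3′ on the strand of its gene, the capitals mark the E2F core or its reverse complement, and a match is a description of the letters only.
Sycp3, chr10:88459413-88459472, plus strand: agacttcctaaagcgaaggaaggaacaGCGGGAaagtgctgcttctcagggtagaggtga
Hormad1, chr3:95559555-95559614, plus strand: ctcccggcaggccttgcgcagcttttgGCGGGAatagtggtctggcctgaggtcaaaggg
Syce2, chr8:84871969-84872028, plus strand: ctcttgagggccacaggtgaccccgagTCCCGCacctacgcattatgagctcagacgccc
Tex12, chr9:50561381-50561440, minus strand: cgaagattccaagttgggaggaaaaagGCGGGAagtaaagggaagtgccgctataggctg
Syce1, chr7:140787855-140787914, minus strand: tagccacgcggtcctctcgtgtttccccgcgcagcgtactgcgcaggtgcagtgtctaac
Syce3, chr15:89410504-89410563, minus strand: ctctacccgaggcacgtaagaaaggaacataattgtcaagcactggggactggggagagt
Syce1 and Syce3, the 2 genes called lower after heat in wild type, had no match in their whole 300-base windows, and neither did Sycp2 and Hormad2. Sycp2 was called lower after heat in the knockout only, and Hormad2 was called lower there but higher in wild type. Sycp1, which held a match, was called higher in wild type only. A link between the match and the heat response was not tested.

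The libraries each held 17243 to 18547 genes at 1 TPM or more, and Pearson correlations of log2(TPM + 1) within groups were 0.971 to 0.994 across genes. Mageb4, the targeted gene, averaged 0.12 ± 0.0224 TPM in heated knockout (SD, n = 5) and 8.03 ± 0.222 in heated wild type (n = 4). It averaged 0.0467 ± 0.0361 TPM in unheated knockout and 1.80 ± 0.173 in unheated wild type (n = 6 each), so the libraries stood on the side their labels gave. Markers of pachytene and diplotene spermatocytes were detected in every library, and their 10 genes summed to between 1708 and 8865 TPM. 1 library, heated wild type replicate 3, held 2127 TPM of 7 epididymal markers, against 2.05 to 2.43 in the other 3 of its group. When it was left out, no count of members called in any comparison fell, and 1 more member (Tex12) was called higher after heat in wild type. In a whole organ, fewer cells of a type and less RNA per cell cannot be told apart.

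**Figure D1:**
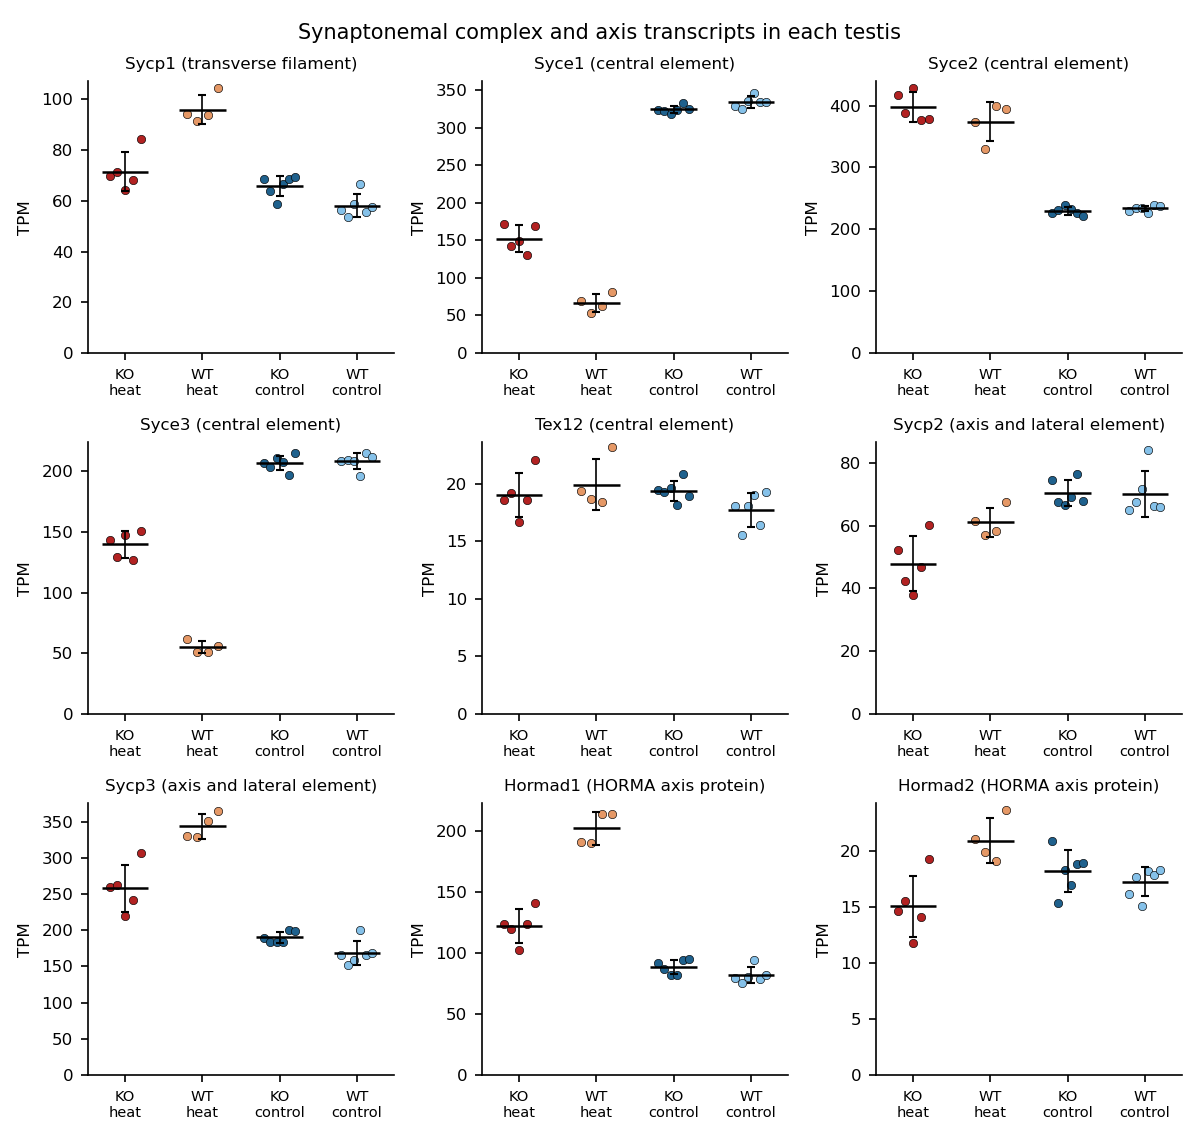
TPM of each gene (vertical axis, from 0) in every testis, with knockout left of wild type and heated left of unheated; points are animals, long bars are means and short bars are SD. Syce1 and Syce3 are lowest in heated wild type, Sycp1, Sycp3 and Hormad1 are highest there, and Tex12 overlaps in all 4 groups.

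After heat some of the 9 genes stood higher and others lower, so that their summed level overlapped between all 4 groups while its makeup differed between heated and unheated testes. The sum averaged 1224 ± 75.8 TPM in heated knockout and 1239 ± 79.5 in heated wild type, against 1213 ± 18.1 in unheated knockout and 1190 ± 34.6 in unheated wild type. The central element genes summed to 709 and 516 TPM in heated knockout and heated wild type, against 780 and 794 TPM in unheated knockout and unheated wild type. The axis genes Sycp2 and Sycp3 together averaged 306 TPM in heated knockout and 405 in heated wild type, against 261 in unheated knockout and 239 in unheated wild type. Syce1 made up 12.4% of the summed level in heated knockout and 5.35% in heated wild type, against 26.7% in unheated knockout and 28.1% in unheated wild type. Syce2 made up 32.6% in heated knockout and 30.2% in heated wild type, against 18.9% in unheated knockout and 19.7% in unheated wild type.

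In the knockout, heat was followed by higher levels of 3 of the 9 genes (Syce2, Sycp3 and Hormad1) and lower levels of 4 (Syce1, Syce3, Sycp2 and Hormad2), with Sycp1 and Tex12 not called. A call is an adjusted p under 0.05 (limma, Benjamini-Hochberg over all genes tested). The background was high, with 82.8% of all genes called, 41.3% higher and 41.5% lower, so 7 of 9 members called is a share near that of all genes. In wild type, 5 were higher after heat (Sycp1, Syce2, Sycp3, Hormad1 and Hormad2), 2 were lower (Syce1 and Syce3), and Tex12 and Sycp2 were not called, against 91.6% of all genes called, 47.0% higher and 44.6% lower. The median log2 fold change of the 9 genes was -0.03 in the knockout and 0.26 in wild type, and that of all genes tested was 0.01 and 0.06. Ranges of heated and unheated animals did not overlap for 6 of the 9 genes in the knockout and for 7 in wild type, against 69.7% and 86.5% of all genes.

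Heat changed 7 of the 9 genes by different amounts in the 2 genotypes. The difference of the heat effects (knockout minus wild type) was called for all but Syce2 and Tex12, 2 upward and 5 downward, against 80.7% of all genes, 33.2% upward and 47.6% downward. The median difference was -0.37 over the 9 genes and -0.23 over all genes, on the log2 scale. Of all genes, 15.3% had a larger absolute difference than Syce3, 18.9% than Syce1 and 39.9% than Hormad1. The shares were 58.0% for Sycp1, 58.5% for Sycp3, 63.4% for Hormad2, 75.9% for Sycp2, 88.1% for Tex12 and 92.7% for Syce2.

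**Figure D2:**
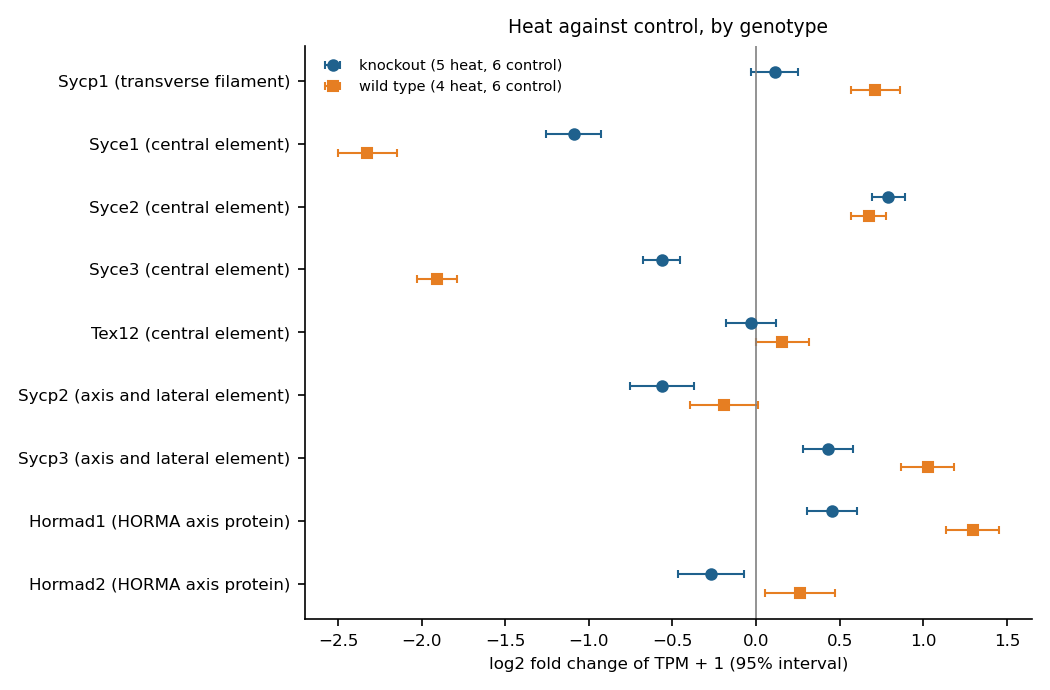
Log2 fold change of TPM + 1, heated against unheated (horizontal axis), for each gene in the knockout (circles, upper) and in wild type (squares, lower); bars are 95% intervals from limma. Syce1 and Syce3 lie left of 0 in both genotypes and further left in wild type, while Sycp3 and Hormad1 lie right of 0 in both and further right in wild type.

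SYCP1 is the coiled-coil transverse filament whose ends anchor in the lateral and central elements. Sycp1 stood at 69.6, 71.3, 64.1, 68.3 and 84.15 TPM in heated knockout, and at 94.0, 91.4, 93.6 and 104 TPM in heated wild type. Unheated knockout ranged over 58.6, 67.5 and 69.2 TPM (lowest, median, highest) and unheated wild type over 53.7, 57.0 and 66.5 TPM. All heated wild-type animals were above every other animal, and heated knockout overlapped unheated knockout. The log2 fold change of heat was 0.11 ± 0.07 (SE, adjusted p = 0.126) in the knockout and 0.71 ± 0.07 (limma adjusted p = 3.56e-09) in wild type. With quantile normalization the value in the knockout was 0.40 and was called (limma adjusted p = 2.72e-06), and with median-of-ratios scaling it was 0.03 (limma adjusted p = 0.680). Between genotypes, the difference of the heat effects was -0.60 ± 0.10 (limma adjusted p = 1.09e-05).

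Among the central element genes, Syce1 and Syce3 fell together after heat. SYCE1 works with SYCE3 and SIX6OS1 in building the central element on SYCP1. Syce1 stood at 172, 142, 149, 130.3 and 168 TPM in heated knockout and at 69.4, 52.8, 63.2 and 81.15 TPM in heated wild type. The unheated animals lay at 318, 323 and 333 TPM in knockout and at 324, 334 and 347 TPM in wild type (lowest, median, highest). The heated groups were apart from each other and from both unheated groups, which overlapped. Mean Syce1 was 2.13-fold lower after heat in the knockout (log2 fold change -1.09 ± 0.08, limma adjusted p = 4.95e-11). In wild type it was 5.01-fold lower (log2 fold change -2.32 ± 0.08, limma adjusted p = 1.91e-16). The difference of the 2 heat effects was 1.23 ± 0.12 (limma adjusted p = 1.15e-08).

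SYCE3 is the small protein that recruits the other central element parts to SYCP1. Syce3 stood at 144, 129.6, 148, 127 and 151 TPM in heated knockout and at 61.5, 50.9, 51.2 and 55.9 TPM in heated wild type. Unheated knockout ranged over 197, 207 and 215 TPM and unheated wild type over 196, 209 and 216 TPM. As for Syce1, heated wild type was below heated knockout, and both were below all unheated animals. Mean Syce3 was 1.48-fold lower after heat in the knockout (log2 fold change -0.56 ± 0.05, limma adjusted p = 3.37e-09) and 3.80-fold lower in wild type (-1.91 ± 0.06, limma adjusted p = 2.17e-17). Between genotypes, the difference of the heat effects was 1.34 ± 0.08 (limma adjusted p = 6.55e-11), and 15.3% of all genes had a larger absolute difference.

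SYCE2 and TEX12 assemble with each other into the fibres that run along the central element, yet their transcripts behaved differently from each other. Syce2 stood at 417, 388, 429, 376 and 378 TPM in heated knockout and at 374, 330.0, 399 and 394 TPM in heated wild type. The unheated animals lay at 221, 228 and 239 TPM in knockout and at 227, 234 and 239 TPM in wild type (lowest, median, highest). Heated animals of both genotypes overlapped and were all above the unheated ones. Syce2 rose after heat by a log2 fold change of 0.79 ± 0.05 in the knockout (limma adjusted p = 2.68e-12) and 0.67 ± 0.05 in wild type (limma adjusted p = 3.06e-11). The difference of the heat effects was 0.12 ± 0.07 (95% interval -0.03 to 0.26, limma adjusted p = 0.125). With median-of-ratios scaling this difference was 0.27 and passed the threshold (limma adjusted p = 0.0117), and with quantile normalization it was -0.09.

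Tex12 stood at 18.6, 19.2, 16.7, 18.6 and 22.1 TPM in heated knockout and at 19.35, 18.7, 18.4 and 23.2 TPM in heated wild type. Unheated knockout ranged over 18.1, 19.4 and 20.9 TPM and unheated wild type over 15.6, 18.1 and 19.3 TPM, so all 4 groups overlapped. The heat effect had a 95% interval of -0.18 to 0.12 in the knockout (limma adjusted p = 0.703) and of -0.0021 to 0.32 in wild type (limma adjusted p = 0.0575), on the log2 scale. Its sign in wild type turned to -0.07 with median-of-ratios scaling, and its sign in the knockout turned to 0.04 with quantile normalization.

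Among the axis genes, Sycp3 rose after heat in both genotypes and Sycp2 fell in the knockout. SYCP3 coats the axis and compacts it, and SYCP2 binds it there and is needed for its loading. Sycp3 stood at 259, 263, 219.6, 242 and 307 TPM in heated knockout and at 331, 329, 351 and 365 TPM in heated wild type. The unheated animals lay at 184, 187 and 201 TPM in knockout and at 152, 166 and 199.98 TPM in wild type (lowest, median, highest). Heated wild type was above heated knockout without overlap, and both were above all unheated animals. Sycp3 rose after heat by a log2 fold change of 0.43 ± 0.07 in the knockout (limma adjusted p = 1.11e-05) and 1.03 ± 0.08 in wild type (limma adjusted p = 2.27e-11). Between genotypes, the difference of the heat effects was -0.60 ± 0.10 (limma adjusted p = 2.74e-05). Sycp3 shares 660 exon bases with Chpt1 on the opposite strand, and Chpt1 averaged 175 and 185 TPM in heated knockout and heated wild type, against 108 and 105 TPM in unheated knockout and unheated wild type. The library kit marks strand, but no source used here says whether the counting did, so the share of Chpt1 reads in the Sycp3 values was not tested.

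Sycp2 stood at 52.2, 42.3, 37.9, 46.8 and 60.3 TPM in heated knockout and at 61.3, 57.0, 58.2 and 67.5 TPM in heated wild type. Unheated knockout ranged over 66.7, 68.4 and 76.6 TPM and unheated wild type over 65.1, 66.8 and 84.1 TPM. Heated knockout was below all unheated animals, while heated wild type overlapped unheated wild type with 1 animal. Sycp2 fell by 0.56 ± 0.09 on the log2 scale after heat in the knockout (limma adjusted p = 9.04e-06). In wild type the log2 fold change was -0.19 ± 0.10 (limma adjusted p = 0.0669), which became -0.43 and passed the threshold with median-of-ratios scaling (limma adjusted p = 0.000142) and turned to 0.02 with quantile normalization. The difference of the heat effects was -0.37 ± 0.13 (limma adjusted p = 0.0166), and -0.22 with median-of-ratios scaling, where it was not called (limma adjusted p = 0.110).

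HORMAD1 and HORMAD2 sit on axes before synapsis and are stripped from them by TRIP13 once the complex has formed. Hormad1 stood at 123, 119, 103, 124 and 141 TPM in heated knockout and at 191, 189.9, 214 and 214 TPM in heated wild type. The unheated animals lay at 81.6, 89.4 and 95.05 TPM in knockout and at 75.75, 79.96 and 94.2 TPM in wild type (lowest, median, highest). Heated wild type was above heated knockout without overlap, both were above all unheated animals, and the unheated groups overlapped. Hormad1 rose after heat by 0.45 ± 0.07 in the knockout (limma adjusted p = 5.22e-06) and by 1.29 ± 0.08 in wild type (limma adjusted p = 3.52e-13), as log2 fold changes. The difference was -0.84 ± 0.10 (limma adjusted p = 3.49e-07). Of 50-base words in Hormad1 transcripts, 22.9% also occur in Gm15529 or Gm7167, which averaged 4.49 and 0.358 TPM in heated knockout, 7.05 and 0.19 in heated wild type, 3.40 and 0.928 in unheated knockout, and 2.82 and 1.22 in unheated wild type.

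Hormad2 was far less abundant than Hormad1 in every group, and its heat effects had opposite signs in the 2 genotypes. It stood at 14.6, 15.5, 11.8, 14.2 and 19.3 TPM in heated knockout and at 21.1, 19.99, 19.1 and 23.7 TPM in heated wild type. Unheated knockout ranged over 15.4, 18.6 and 20.9 TPM and unheated wild type over 15.2, 17.8 and 18.4 TPM. Heated wild type was above all unheated wild type, and heated knockout overlapped every other group. The log2 fold change of heat was -0.27 ± 0.09 in the knockout (limma adjusted p = 0.0124) and 0.26 ± 0.10 in wild type (limma adjusted p = 0.0175). The fall was not called without heated knockout replicate 3 (-0.19, limma adjusted p = 0.0545). The rise was not called without heated wild-type replicate 4 (0.21, limma adjusted p = 0.0761), nor with median-of-ratios scaling (0.04, limma adjusted p = 0.681) or quantile normalization (0.16, limma adjusted p = 0.111). Between genotypes, the difference of the heat effects was -0.53 ± 0.14 (limma adjusted p = 0.00140), and -0.39 with median-of-ratios scaling (limma adjusted p = 0.00853).

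Median-of-ratios scaling moved the median of all genes by -0.24 for heat in wild type, by 0.12 for knockout against wild type after heat and by 0.15 for the difference of the heat effects. Beside that shift, Syce1 and Syce3 still fell after heat in wild type (-2.56 and -2.14), and Sycp1, Syce2, Sycp3 and Hormad1 still rose (0.48, 0.44, 0.79 and 1.06), all 6 with calls.

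After heat, the knockout held more Syce1 and Syce3 than wild type, and less Sycp1, Sycp2, Sycp3, Hormad1 and Hormad2. Mean Syce1 was 2.29-fold and mean Syce3 2.55-fold higher in heated knockout (log2 fold changes of 1.19 ± 0.09 and 1.34 ± 0.06, limma adjusted p = 1.64e-10 and 3.64e-13). These 2 higher and 5 lower calls compare with 83.5% of all genes called, 34.4% higher and 49.0% lower. The differences of the 5 lower genes were -0.73 ± 0.08 for Hormad1 (limma adjusted p = 3.71e-08), -0.46 ± 0.10 for Hormad2 (limma adjusted p = 0.000379) and -0.42 ± 0.07 for Sycp1 (limma adjusted p = 2.26e-05). They were -0.42 ± 0.08 for Sycp3 (limma adjusted p = 5.49e-05) and -0.36 ± 0.10 for Sycp2 (limma adjusted p = 0.00287), all on the log2 scale. Syce2 differed by 0.09 (95% interval -0.02 to 0.20) and Tex12 by -0.06 (95% interval -0.23 to 0.10), neither called. With median-of-ratios scaling Syce2 was called higher in the knockout (0.21, limma adjusted p = 0.00847) and Tex12 turned to 0.05, and with quantile normalization the 2 values were -0.09 and 0.07. The median was -0.36 over the 9 genes and -0.20 over all genes. Ranges of heated knockout and heated wild type did not overlap for 5 of the 9 genes, against 72.3% of all genes.

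Without heat, none of the 9 genes differed between the genotypes at an adjusted p under 0.05 (limma), against 1.33% of all genes called (1.25% higher and 0.0843% lower). The 253 genes behind that share were 19 without unheated wild-type replicate 3 and 491 without heated knockout replicate 4, and 0 members were called in each fit that left out 1 library. At an unadjusted p under 0.05 there were 2, Sycp1 (log2 fold change 0.18 ± 0.06, limma adjusted p = 0.144) and Sycp3 (0.18 ± 0.07, limma adjusted p = 0.182). The 95% intervals of the 9 fold changes lay between -0.20 and 0.32 on the log2 scale. For 0 of the 9 genes were the ranges of the 2 unheated groups apart, against 4.97% of all genes. Unheated wild-type replicate 4 was the highest of its group in Sycp1, Syce1, Sycp2, Sycp3 and Hormad1 and the lowest in Syce2 and Syce3. Without it, Sycp3 ranged from 184 to 201 TPM in unheated knockout and from 152 to 169 TPM in unheated wild type, which do not overlap, but the fold change was still not called (0.23 ± 0.06, limma adjusted p = 0.0739).

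**Figure D3:**
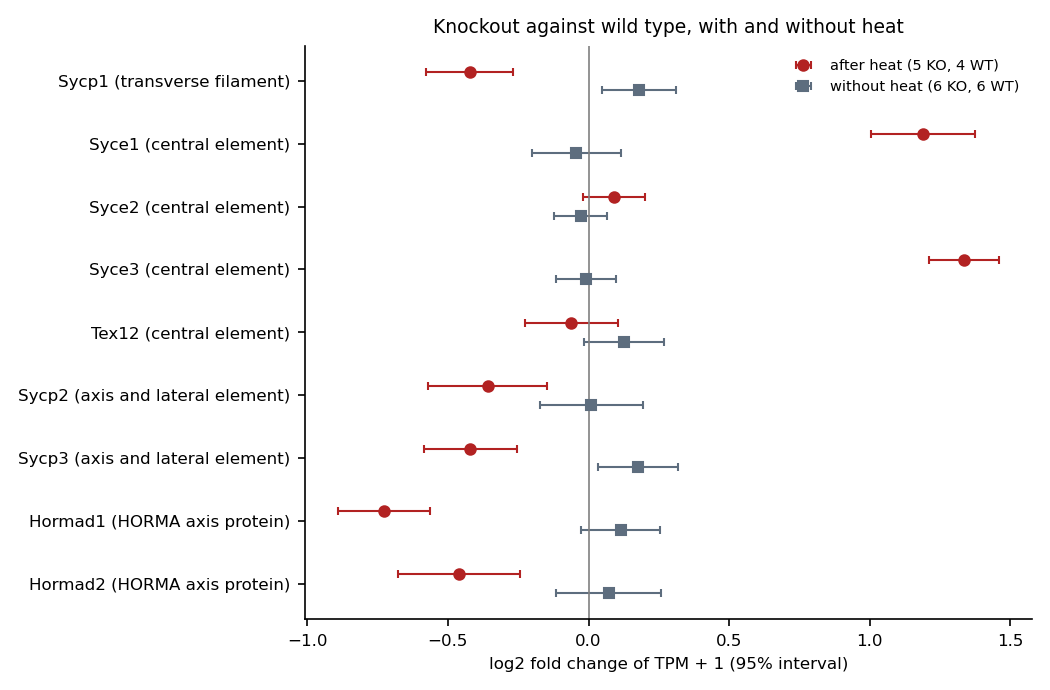
Log2 fold change of TPM + 1, knockout against wild type (horizontal axis), after heat (circles, upper) and without heat (squares, lower); bars are 95% intervals from limma. After heat Syce1 and Syce3 lie right of 0 and Sycp1, Sycp2, Sycp3, Hormad1 and Hormad2 lie left of it, while none of the 9 was called without heat.

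Within each testis, the proportions between the proteins' transcripts shifted with heat. These ratios are descriptions with no test, and the last 4 were picked after their values were seen. Sycp1 to Sycp3 was 0.278 ± 0.00957 in heated knockout and 0.279 ± 0.00895 in heated wild type, against 0.346 ± 0.0160 in unheated knockout and 0.345 ± 0.0135 in unheated wild type. The ratio of Syce3 to Sycp1 was 1.97 ± 0.216 in heated knockout and 0.573 ± 0.0548 in heated wild type, against 3.15 ± 0.242 in unheated knockout and 3.61 ± 0.348 in unheated wild type. Hormad2 to Hormad1 was 0.123 and 0.104 in heated knockout and heated wild type, against 0.206 and 0.212 in unheated knockout and unheated wild type. Sycp1 to Sycp3 overlapped between the heated groups and Hormad2 to Hormad1 did not, and Syce3 to Sycp1 separated heated knockout from heated wild type. Syce1 to Sycp1 likewise averaged 2.14 in heated knockout and 0.692 in heated wild type, against 4.93 in unheated knockout and 5.76 in unheated wild type. Sycp2 to Sycp3 averaged 0.185 in heated knockout and 0.177 in heated wild type, against 0.370 in unheated knockout and 0.416 in unheated wild type. Syce2 to Tex12, the fibre-forming pair, averaged 21.1 in heated knockout and 18.9 in heated wild type, against 11.8 in unheated knockout and 13.3 in unheated wild type. Syce2 to Syce1 averaged 2.63 and 5.70 in heated knockout and heated wild type, against 0.708 and 0.700 in unheated knockout and unheated wild type.

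**Figure D4:**
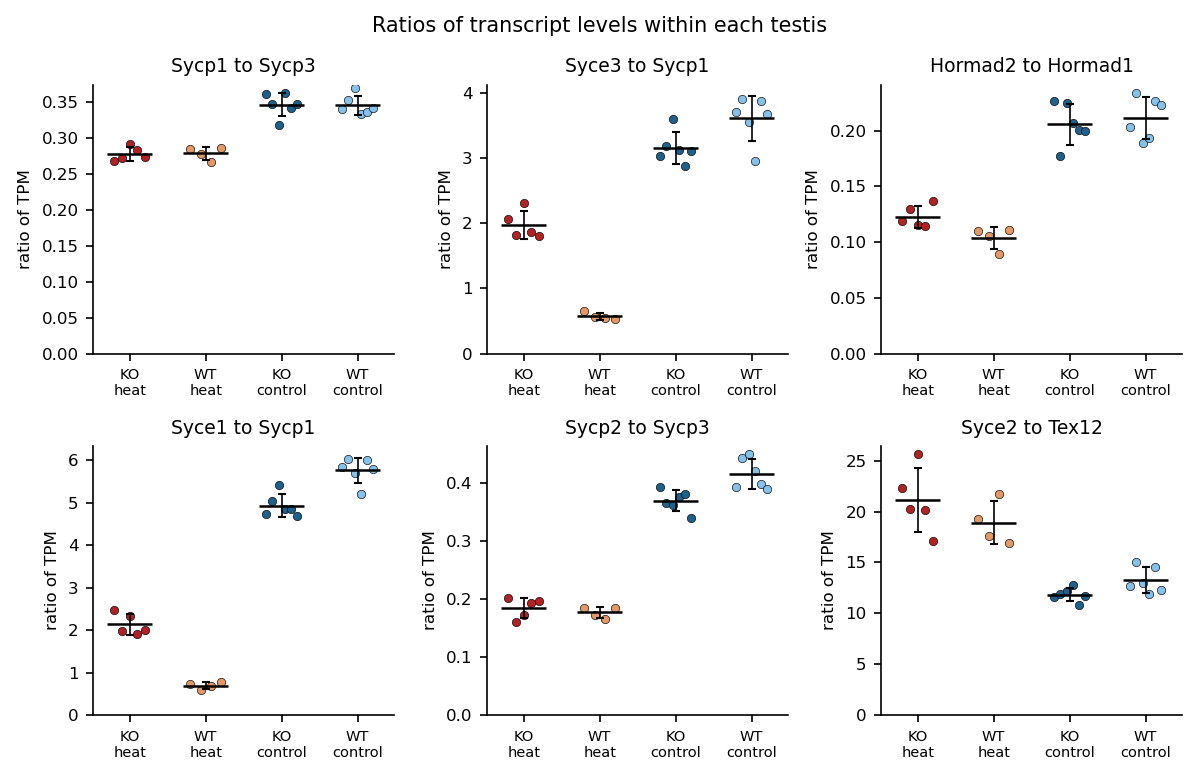
Ratio of 2 genes' TPM within each testis (vertical axis, from 0), with knockout left of wild type and heated left of unheated; points are animals, long bars are means and short bars are SD. Sycp1 to Sycp3 and Sycp2 to Sycp3 overlap between the heated groups, while Syce3 to Sycp1 and Syce1 to Sycp1 are lowest in heated wild type.

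Many of the 9 genes also varied together between the animals of a group. Heated knockout replicate 5 was the highest of its group in 7 of the 9 genes and replicate 3 the lowest in 6. Heated wild-type replicate 4 was the highest of its group in 7 and replicate 2 the lowest in 7. In the summed level of the axis and complex partners counted below, heated knockout replicate 5 was also highest (271 TPM) and replicate 3 lowest (191 TPM). In heated wild type, replicate 4 lay within the range of the others there (245 TPM), and replicate 3 was lowest (228 TPM). What the genes share with the animal was not tested.

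The profile over the 21 libraries, set to its mean in unheated wild type, was compared with those of 10596 other named genes of at least 5 TPM by the root mean square difference in log2. Hormad1 and Sycp3 were each other's nearest member at 0.131, and 41 other genes lay nearer to Sycp3 and 115 nearer to Hormad1. Syce1 and Syce3 were each other's nearest at 0.343, with 591 other genes nearer to Syce1 and 586 nearer to Syce3. Nearest to Sycp3 was Thumpd1 (0.079), and nearest to Hormad1 were Ahcyl1 (0.075) and Arl6ip1 (0.079). Nearest to Syce1 were Dis3l (0.066) and Trim37 (0.074), and nearest to Syce3 were Mprip (0.052) and Rfc2 (0.060). Nearest to Syce2 were Dbil5 (0.040) and Smcp (0.051), which codes for a sperm mitochondrial capsule protein. For Sycp1 they were Wdr5 (0.080) and Gjc1 (0.085), for Sycp2 Prr11 and Gtf3c4 (0.084 each), for Tex12 Drosha (0.093) and Tmem231 (0.1003), and for Hormad2 Gpbp1l1 (0.112) and Dnaja2 (0.118).

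Other genes of meiotic prophase were counted from 7 lists of 68 genes, of which 66 were tested. In the knockout 19 rose and 38 fell after heat with a median log2 fold change of -0.33, and in wild type 27 rose and 32 fell with a median of -0.08. These counts, and those by list below, stand against 82.8% of all genes called in the knockout and 91.6% in wild type, and nothing particular to the lists is read from them. After heat 18 were higher and 30 lower in the knockout than in wild type, against 83.5% of all genes called, and without heat 0 were called in either direction (limma). Six6os1, from the list of axis and complex partners, codes for a central element protein. It averaged 30.1 TPM in heated knockout and 56.6 in heated wild type, against 17.7 in unheated knockout and 16.2 in unheated wild type. Rec8, the meiotic cohesin on which the axis is built, averaged 13.4 and 13.6 TPM in heated knockout and heated wild type, against 61.3 and 62.6 TPM in unheated knockout and unheated wild type. Of 10 tested axis and complex partners, 3 rose and 7 fell in the knockout, and 3 rose and 6 fell in wild type.

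Of the 12 crossover and synapsis initiation genes, 3 rose and 9 fell in the knockout, and 4 rose and 6 fell in wild type. Tex11, an X-linked crossover factor, averaged 11.6 and 18.9 TPM in heated knockout and heated wild type, against 6.80 and 5.65 in unheated knockout and unheated wild type. Cntd1, which acts in crossover maturation, averaged 35.4 and 26.9 TPM in heated knockout and heated wild type, against 76.6 and 73.6 in unheated knockout and unheated wild type. Of the 13 double-strand break and strand exchange genes, 5 rose and 7 fell in the knockout, and 6 rose and 7 fell in wild type. The recombinase Dmc1 averaged 24.5 TPM in heated knockout and 38.0 in heated wild type, against 12.0 in unheated knockout and 10.8 in unheated wild type. Brme1, a partner of BRCA2 in meiotic recombination, averaged 14.3 and 6.28 TPM in heated knockout and heated wild type, against 53.1 and 55.1 in unheated knockout and unheated wild type.

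Telomere attachment genes fell in 6 of 7 cases in each genotype. Kash5, which ties telomeres to cytoplasmic dynein, averaged 14.3 and 8.16 TPM in heated knockout and heated wild type, against 45.7 and 45.8 in unheated knockout and unheated wild type. Cdk2 was the exception in wild type, at 59.5 and 70.4 TPM in heated knockout and heated wild type, against 60.4 and 57.9 in unheated knockout and unheated wild type. Of the 8 unsynapsed-axis checkpoint genes, 1 rose and 3 fell in the knockout, and 5 rose and 2 fell in wild type. Hus1, a clamp subunit, averaged 4.12 and 7.51 TPM in heated knockout and heated wild type, against 3.70 and 3.60 in unheated knockout and unheated wild type. The kinase gene Chek1 averaged 4.37 and 3.94 TPM in heated knockout and heated wild type, against 9.65 and 10.2 in unheated knockout and unheated wild type.

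Of the 9 meiotic entry and prophase regulators, 4 rose and 3 fell in the knockout, and 3 rose and 3 fell in wild type. Dazl, an RNA-binding germ cell factor, averaged 136 and 224 TPM in heated knockout and heated wild type, against 84.5 and 74.4 in unheated knockout and unheated wild type. Tcfl5, a transcription factor of spermatocytes, averaged 130.5 and 63.2 TPM in heated knockout and heated wild type, against 224 and 225 in unheated knockout and unheated wild type. Of the 7 subunits of PRC1.6, the repressor complex that E2F6 belongs to, 3 rose and 3 fell in the knockout, and 5 rose and 2 fell in wild type. Its subunit Max averaged 22.1 and 40.1 TPM in heated knockout and heated wild type, against 12.2 and 11.6 in unheated knockout and unheated wild type. Its subunit Pcgf6 averaged 24.5 and 24.2 TPM in heated knockout and heated wild type, against 41.1 and 41.2 in unheated knockout and unheated wild type.

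**Figure D5:**
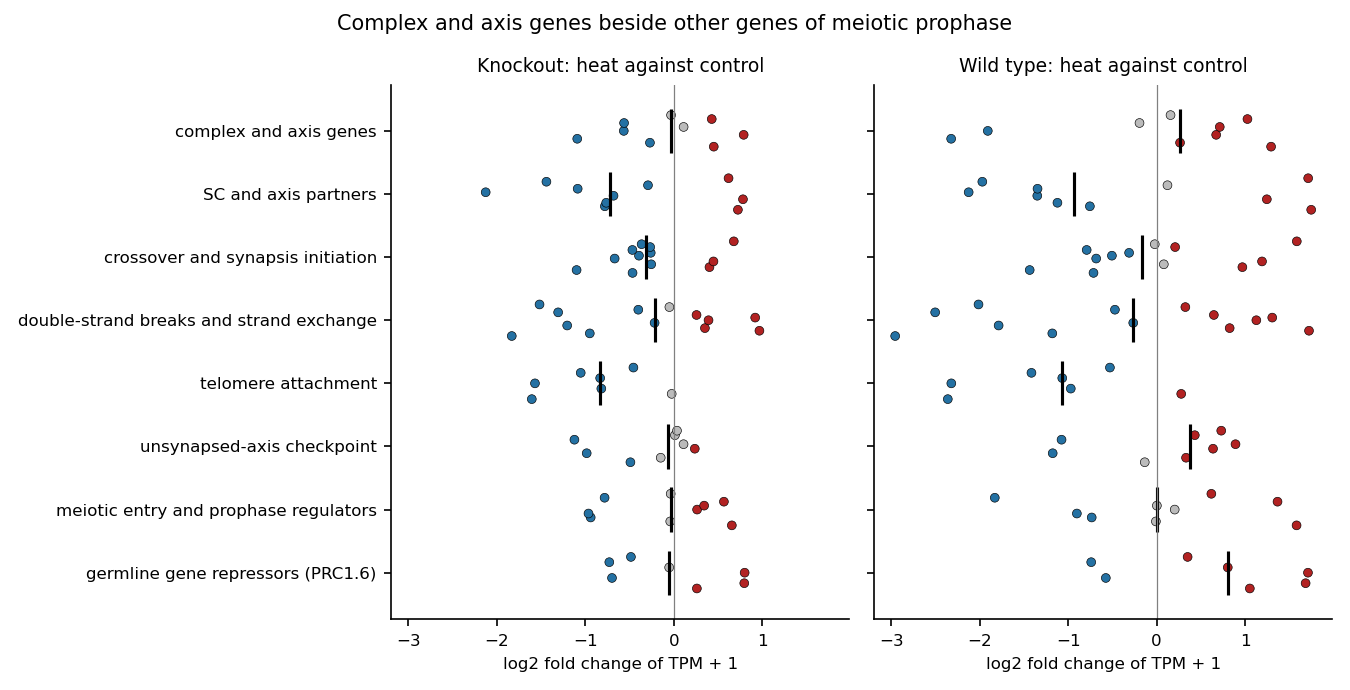
Log2 fold change of TPM + 1, heated against unheated (horizontal axis), in the knockout (left) and in wild type (right), for the 9 complex and axis genes and 7 lists of other prophase genes. Red points were called higher, blue points lower and grey points were not called, and black bars are list medians; every list except telomere attachment in the knockout holds genes on both sides.

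Markers of cell types also differed between the groups. The counts of markers called, here and below, stand against a high background. With heat, 82.8% of all genes were called in the knockout (41.3% higher, 41.5% lower) and 91.6% in wild type (47.0% higher, 44.6% lower). For knockout against wild type after heat, 83.5% of all genes were called, 34.4% higher and 49.0% lower. Of 10 pachytene and diplotene markers, 9 fell and 1 rose after heat in each genotype. Their sum ranged over 4087 to 5088 TPM in heated knockout and 1708 to 2362 in heated wild type, against 7604 to 8418 in unheated knockout and 7819 to 8865 in unheated wild type. Of 10 round spermatid markers, 9 fell in the knockout and 10 in wild type, with sums of 985 to 1354 TPM in heated knockout and 339.6 to 492 in heated wild type, against 2094 to 2276 in unheated knockout and 2199 to 2338 in unheated wild type. After heat, 8 of 10 pachytene and 10 of 10 round spermatid markers were higher in the knockout than in wild type. Of 8 elongating spermatid markers, 8 rose in the knockout, while 3 rose and 3 fell in wild type. Their sums were 68099 to 85408 TPM in heated knockout and 28332 to 39067 in heated wild type, against 43179 to 50175 in unheated knockout and 41054 to 51902 in unheated wild type.

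Sertoli markers, 10 of 10 higher after heat in each genotype, summed to 4331 to 6374 TPM in heated knockout and 9513 to 11788 in heated wild type, against 1528 to 2076 in unheated knockout and 1208 to 1393 in unheated wild type. After heat, 10 of the 10 were lower in the knockout than in wild type. Without heat 4 were higher in it, against 1.25% of all genes called higher. Leydig markers rose in 7 of 7 after heat in each genotype, with sums of 4213 to 5428 TPM in heated knockout and 4748 to 6745 in heated wild type, against 1401 to 2070 in unheated knockout and 1075 to 1574 in unheated wild type. Leukocyte markers rose in 6 of 6, with sums of 75.6 to 94.3 TPM in heated knockout and 153 to 212 in heated wild type, against 29.6 to 37.8 in unheated knockout and 23.8 to 28.0 in unheated wild type. After heat, 3 of 7 Leydig and 6 of 6 leukocyte markers were also lower in the knockout than in wild type. Without heat, 2 Leydig markers and 1 leukocyte marker were higher in it.

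Of 6 tested markers of undifferentiated spermatogonia, 4 rose and 1 fell in the knockout, and 5 rose and 1 fell in wild type. The sums of all 8 were 36.05 to 49.4 TPM in heated knockout and 73.5 to 83.3 in heated wild type, against 27.0 to 32.7 in unheated knockout and 24.3 to 27.1 in unheated wild type. Of 6 markers of differentiating spermatogonia, 5 rose and 1 fell in each genotype, although their sum was lower after heat. The 1 that fell was Dmrtb1, with log2 fold changes of -2.15 in the knockout and -4.49 in wild type. It was 214 to 285 TPM in heated knockout and 117 to 155 in heated wild type, against 674 to 761 in unheated knockout and 673 to 793 in unheated wild type. By group mean, Syce1 and Syce3 stood in the order shown by the median sums of the pachytene and round spermatid lists. The sum of the differentiating spermatogonia list had that order too, but it fell through Dmrtb1 alone while the other 5 markers rose. Sycp1, Sycp3 and Hormad1 stood in the order shown by the median sums of the Sertoli, Leydig, leukocyte and undifferentiated spermatogonia lists. Syce2, Tex12, Sycp2 and Hormad2 stood in neither of these orders. Syce2 was highest in heated knockout, then heated wild type, unheated wild type and unheated knockout. None of the listed germ cell, Sertoli, Leydig or leukocyte markers was at 0 throughout a group. The part of cell composition in the results on the 9 genes was not tested.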

How the data were processed

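Whole-testis RNA of C57BL6 males was sequenced in 21 stranded mRNA libraries, per the labels' protocols, and per the submitters' processing notes STAR and mm10 were named. No source used here gives the aligner's version, the annotation, the abundance tool or its use of strand. The authors deposited TPM. TPM keeps no depth, so counting error is unknown and precision comes from the spread between animals. Replicates are biological, per the labels' protocols, and each was taken as 1 animal, which the labels do not spell out.

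Values were taken as log2(TPM + 1), so fold changes of low genes are understated. The 18977 genes averaging 1 TPM or more entered 1 fit of 4 group means in limma 3.58.1 (R 4.3.3), with a mean-variance trend, tested on simulated data first. P-values of 5 comparisons were adjusted by Benjamini-Hochberg within each comparison over all genes tested, with calls under 0.05. A fold given in TPM divides one group mean by another. The alternatives were a pseudocount of 0.1, no filter, a filter of 5 TPM, median-of-ratios scaling, quantile normalization, no mean-variance trend, the replicate number as a block, and each library left out.

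The members and lists were chosen with earlier results of these data known. All 9 members are named, and from each pathway list the genes with the largest and smallest heat effect in wild type. The 2 nearest patterns of each member are named, leaving out predicted, clone and RIKEN names, and 1 of them is not reported here. Shoc1 was listed under an older symbol, and 1 gene listed under a clone name was dropped because the annotation gives it no such synonym. Names given here for Six6os1, Brme1 and Kash5 stand in the table as 4930447C04Rik, 4930432K21Rik and Ccdc155. Gene positions are from GENCODE M21 and promoters from RefSeq, and neither need be the annotation behind the values.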

Additional observations from a re-analysis of the deposited data

Results flagged for a closer look

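In unheated wild type, replicate 4 stood apart from the other 5 animals in 4 genes. It held 196.19 TPM of Syce3, where the nearest other animal held 209, and 84.14 TPM of Sycp2, where the nearest held 71.7. It held 199.98 TPM of Sycp3, with the nearest at 169, and 94.22 TPM of Hormad1, with the nearest at 82.3. The test for a sample far from the others was run on 36 sets of 1 gene in 1 group and found these 4, all in the same animal. Chance marks about 1 set in 20, and the genes of 1 animal are not independent. The same animal held 8865 TPM of pachytene and diplotene markers and 498 TPM of axis and complex partners, both above the rest of its group. Below the rest were its sums for elongating spermatids (41054 TPM), differentiating spermatogonia (673 TPM) and Sertoli cells (1208 TPM). Its round spermatid (2236 TPM) and Leydig (1172 TPM) sums lay within the range of the others. The part of these sums in the 4 values was not tested.

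The effect of heat differed between knockout and wild type in 7 genes, by limma's test of the difference itself (adjusted p under 0.05, 80.7% of all genes called). The differences, knockout minus wild type on the log2 scale, were 1.34 for Syce3 and 1.23 for Syce1. They were -0.84 for Hormad1, -0.60 for Sycp1, -0.60 for Sycp3, -0.53 for Hormad2 and -0.37 for Sycp2. Syce3 and Syce1 fell less in the knockout, and Sycp3 and Hormad1 rose less. Sycp1 was called higher in wild type and not in the knockout, where quantile normalization did call it (0.40, limma adjusted p = 2.72e-06). For Hormad2 the 2 heat effects had opposite signs, but both calls depended on the setting. The rise in wild type was not called with median-of-ratios scaling (0.04, limma adjusted p = 0.681) or quantile normalization (0.16, limma adjusted p = 0.111). It was also not called without heated wild-type replicate 4, nor was the fall in the knockout without heated knockout replicate 3.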

How the results depend on the processing

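Over 45 member comparisons under 7 other settings and 21 fits that each left out 1 library, 1220 results kept their direction and side of the threshold, 20 changed sign, 15 gained a call and 5 lost one. The calls for Syce1, Syce3, Sycp3 and Hormad1 held under every setting run, both for heat in each genotype and for its difference between genotypes. The cause of each change below was not tested.

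With median-of-ratios scaling the log2 fold change turned to -0.0671 for Tex12 with heat in wild type, to 0.0548 for Tex12 in knockout against wild type after heat, and to -0.0184 for Sycp2 in knockout against wild type without heat. With quantile normalization it turned to 0.03996 for Tex12 with heat in the knockout and to 0.0228 for Sycp2 with heat in wild type. It turned to -0.0909 for Syce2 and 0.0663 for Tex12 in knockout against wild type after heat, and to -0.0876 for Syce2 in the difference of the heat effects. Without heat it turned to 0.00992 for Syce3 and -7.15e-05 for Sycp2. Quantile normalization also called Sycp1 higher with heat in the knockout (0.40, limma adjusted p = 2.72e-06).

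Leaving out 1 library turned Tex12 to 0.0138 with heat in the knockout (without heated knockout replicate 3; lowest -0.0822 without replicate 5) and to 0.00999 in knockout against wild type after heat (without heated wild-type replicate 4; lowest -0.114 without heated knockout replicate 5). Without heat, such fits gave -0.0269 to 0.00402 for Syce3, and 0.000116 without unheated wild-type replicate 5, and -0.0153 to 0.0625 for Sycp2, none called. Those for Sycp2 below 0 were -0.0153, -0.0106, -0.00766, -0.00694, -0.00608 and -0.000465. Tex12 with heat in wild type gained a call in 6 of these fits (adjusted p from 0.0378, limma), and Sycp2 in 3 (from 0.0333). Tex12 also gained one in the difference of the heat effects without heated knockout replicate 5 (-0.24, limma adjusted p = 0.0326).

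The number of all genes called in knockout against wild type without heat, 253, was 454 with a pseudocount of 0.1, 80 with no filter, 125 with median-of-ratios scaling and 70 with quantile normalization. It ranged from 19 (without unheated wild-type replicate 3) to 491 (without heated knockout replicate 4) over the fits that left out 1 library. In each of these fits 0 members were called there.

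With the replicate number as a block, 15601 genes were called for heat in the knockout, 17271 for heat in wild type, 15661 for knockout against wild type after heat, 181 without heat and 15123 for the difference. Only Tex12 among the members changed its call, with heat in wild type (0.18, limma adjusted p = 0.0433). Same-numbered libraries deviated together by r of -0.23 to 0.31 across genes. Weak correlations cannot show whether the numbers link animals, and the labels do not say.

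Depth is unknown, so the error of Tex12 and Hormad2, the least abundant members, rests on the spread between animals alone.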
